A study of Mus musculus with 2 samples.

Results

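Mast cell proteases and receptors were read in the skin RNA of newborn mice without Pla2g4e and of wild-type newborns. The 10 genes were Cpa3, Cma1, Mcpt4, Tpsb2, Tpsab1, Ms4a2, Fcer1a, Hdc, Kit and Mrgprb1, chosen by name from the list of probes outside the controls. They took 12 probes, against 39422 probes for 24290 named genes on the whole array. The knockout group was 1 pool of Pla2g4e-/- skin RNA and the wild-type group 1 pool of Pla2g4e+/+ skin RNA, each mixed in equal amounts from 5 newborns (postnatal day 0, strain C57BL/6N). Both groups were untreated as far as the labels say, and whether the deletion was limited to a cell type and which part of the gene it removed are not given in the sources used here. Each pool was labelled with Cy3 and hybridised to 1 Agilent array, so no value below has a replicate among pools or animals, and no test was run. The error given with a difference is 1 error of the scanner software's model for a pair of spots, which leaves out the animals. Depth in the sense of reads has no counterpart on an array, and the number of arrays limits the precision.

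Mast cells are tissue-resident cells of the blood lineage that gather around vessels and nerves in the dermis. They carry granules in which neutral proteases and histamine are bound to a proteoglycan matrix, and they release them when antigen crosslinks IgE on the high-affinity receptor FcεRI or when cationic ligands bind Mas-related receptors. The connective tissue type, which populates skin, is known for chymases, tryptases and carboxypeptidase A3, and depends on Kit, the receptor for stem cell factor.

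Pla2g4e itself, the check of the labels, had an unscaled signal of 320 in the knockout pool and 662 in the wild-type pool, a difference of -0.96 ± 0.20 log2 after scaling each array to its 75th percentile. Y-linked Ddx3y read 2.36 in the knockout pool and 2893 in the wild-type pool, and the X-inactivation transcript Xist read 2889 in the knockout pool and 796 in the wild-type pool. The pools therefore held RNA of animals of unlike sex, and genotype and sex cannot be told apart in any value here. Of all probes, 80.8% in the knockout pool and 78.0% in the wild-type pool were well above background. For the 19397 genes measured in both pools, differences had a median of 0.01 log2 and a central 95% range of -0.76 to 0.95.

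The probes behind the largest differences are shown so that each value can be tied to the molecule that was read. Each is 60 bases long, and the first 30 bases of each are printed in the 5′ to 3′ direction.
Fcer1a, A_55_P2120244: caggaattgcataaatgcttcattaaacca
Hdc, A_51_P254656: ttgatcataacctcacagggtcttcgtgat
Cpa3, A_51_P214127: gccaagtatatcctcaagaatacttcctaa
Mrgprb1, A_52_P288260: gttcctcttagagtggattagggaatttca
Mrgprb1, A_55_P2071940: gactactaatcacttccttcctttagaagc
On the mouse assembly mm9, as the files give it, the Fcer1a probe lies on the minus strand of chromosome 1 from 175151438 to 175151497, and the Hdc probe on that of chromosome 2 from 126419516 to 126419575. The Cpa3 probe lies on the minus strand of chromosome 3 from 20115674 to 20115733. The pair of Mrgprb1 probes lies on the minus strand of chromosome 7, from 55702712 to 55702771 and from 55699483 to 55699542. The files number these at bases 896 and 4125 of the transcript NM_205810, a distance of 3229 bases that equals their distance in the genome. Exon, intron and UTR limits on mm9 were not used here.

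All 12 probes were well above background in both pools and none was saturated, so the 10 genes entered every count below without a loss to the filter. Every gene's brightest probe read higher in the knockout pool, with differences from 0.19 to 3.80 log2 and a median of 0.42, against a median of 0.01 over all measured genes. A difference of 1.5-fold or more toward the knockout was seen for 4 of the 10 (Fcer1a, Hdc, Mrgprb1 and Cpa3) and toward the wild type for 0, where 6.74% of all measured genes were higher and 4.5% lower by that size. Of the 6 members brighter than the median gene, 2 (Hdc and Cpa3) were higher and 0 lower, beside 4.11% and 2.43% of the brighter genes. At 2-fold the count was 2 of 10 higher, Fcer1a and Hdc, and 0 lower, beside 2.23% and 1.44% of all genes. Hdc was the 1 of the 6 brighter members past 2-fold, where 1.04% of the brighter genes were higher and 0.804% lower. The differences of 5 genes exceeded 2 scanner errors, namely those of Fcer1a, Hdc, Mrgprb1, Cpa3 and Mcpt4, and those of the other 5 did not. For bright spots the model's error is close to a fixed share of the signal, 0.20 log2 per pair, so this limit works much as a fold limit. Over 261 probes with 10 spots, the median standard deviation of the spots' differences was 0.035 log2. That spread, too, leaves out the animals. In RNA of whole skin, more mast cells, more RNA per mast cell and RNA of other cells that express the same genes cannot be told apart.

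**Figure D1:**
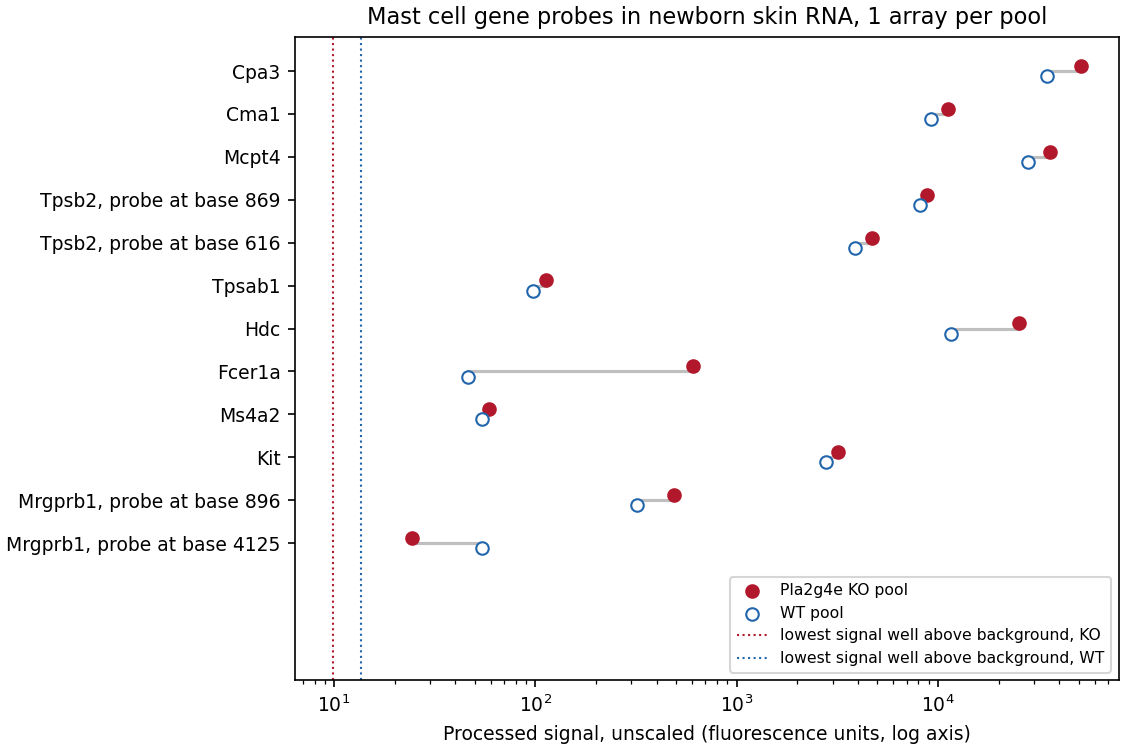
Unscaled processed signal (fluorescence units, log axis) of each probe of the 10 mast cell genes in the knockout pool (filled points) and the wild-type pool (open points), 1 array each, with dotted lines at the lowest signal that was well above background on each array (9.84 in the knockout pool and 13.5 in the wild-type pool). The Fcer1a points lie farthest apart, at 606 and 46.3, and the Mrgprb1 probe at base 4125 is the 1 probe whose knockout point lies to the left.

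**Figure D2:**
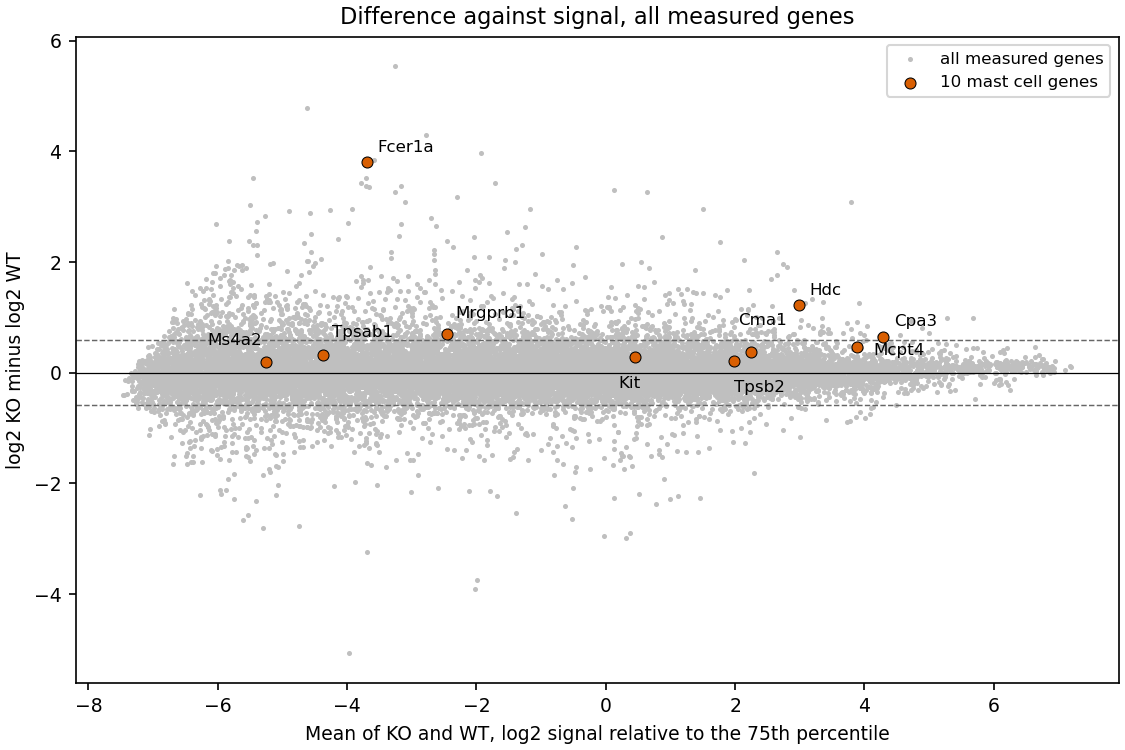
Difference between the knockout and wild-type pools (log2) against the mean log2 signal of both pools relative to the 75th percentile of the array, for all 19397 measured genes (grey) and the 10 mast cell genes (orange); dashed lines mark 1.5-fold. All 10 lie above 0, with Fcer1a among dim genes and Hdc and Cpa3 among bright ones.

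The granule proteases read higher in the knockout pool, all 5 of them, with a median difference of 0.38 log2, and 1 of the 5 passed 1.5-fold. Cpa3, carboxypeptidase A3, which trims peptides inside the granule, read 51572 in the knockout pool and 34901 in the wild-type pool. Its difference was 0.65 ± 0.20 log2, or 1.57-fold, and 1053 of the measured genes had a larger difference toward the knockout. The chymase Mcpt4, which cuts after aromatic residues, read 36196 in the knockout pool and 27978 in the wild-type pool, with a difference of 0.46 ± 0.20 log2. Cma1, chymase 1, read 11280.3 in the knockout pool and 9262 in the wild-type pool, a difference of 0.38 ± 0.20 log2. Both chymase genes stayed below 1.5-fold, at 1.38-fold for Mcpt4 and 1.30-fold for Cma1. The Mcpt4 probe lies on the minus strand of mm9 chromosome 14 from 56678589 to 56678648, while the files list the Cma1 probe as unmapped.

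By the brightest probe of each gene, the tryptases had the smallest differences of the 5 proteases, while the second Tpsb2 probe stood level with Cma1. Their error ranges overlapped that of Cma1, 0.38 ± 0.20 log2, so the spots' errors do not separate the tryptases from Cma1. Tpsb2, the main tryptase of mouse skin mast cells, had a pair of probes on the plus strand of mm9 chromosome 17 that gave the same direction. The brighter probe, from 25504819 to 25504878, read 8876 in the knockout pool and 8180 in the wild-type pool, with a difference of 0.21 ± 0.20 log2. The dimmer probe, from 25504493 to 25504552, read 4701 in the knockout pool and 3852.5 in the wild-type pool, with a difference of 0.38 ± 0.20 log2. Both lay within 2 scanner errors of 0. Tpsab1, a neighbouring tryptase gene that RefSeq lists as a transcribed pseudogene, read 113 in the knockout pool and 97.2 in the wild-type pool. That made 0.31 ± 0.21 log2, also within 2 errors. Signal shared between tryptase paralogs was not tested.

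Hdc, histidine decarboxylase, which makes histamine from histidine, was 2.33-fold higher in the knockout pool. It read 25426 in the knockout pool and 11612 in the wild-type pool, a difference of 1.22 ± 0.20 log2. Of the 19397 measured genes, 276 had a larger difference in that direction. Hdc is expressed by basophils and other cells as well as by mast cells.

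Among the receptors, Fcer1a, the IgE-binding alpha chain of FcεRI, had the largest difference of the 10 genes, and 5 of all measured genes had a larger one toward the knockout. It read 606 in the knockout pool and 46.3 in the wild-type pool, with spot errors of 60.6 and 5.64, so that the difference was 3.80 ± 0.23 log2, or 13.9-fold. The wild-type spot was dim but well above background. Its pixels averaged 82.1 with a median of 80.0 over a local background of 23, whereas the knockout spot's pixels averaged 629 with a median of 619 over a background of 22. Neither spot was marked as non-uniform. The 37 measured spots around it on the arrays had a median difference of -0.03 log2, and around all 12 probes such medians ran from -0.04 to 0.09. With background correction by normexp, which draws low signals together, the Fcer1a difference was 2.68 log2.

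The partner chains of the same receptor did not reach 1.5-fold. Ms4a2, the beta chain, which amplifies the signal of FcεRI in mast cells and basophils, read 58.6 in the knockout pool and 54.6 in the wild-type pool, a difference of 0.19 ± 0.22 log2 from a probe on the minus strand of mm9 chromosome 19 from 11691701 to 11691760. Fcer1g, the signalling gamma chain, which many myeloid cells share, read 10058 in the knockout pool and 8662 in the wild-type pool, a difference of 0.31 ± 0.20 log2. The alpha chain's difference therefore stood beside differences of under 1.5-fold for both partners, and with 1 array per group the gap between them has no replicate check.

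Kit, the receptor tyrosine kinase on which mast cells and melanocytes depend, read 3190 in the knockout pool and 2773 in the wild-type pool. Its difference of 0.29 ± 0.20 log2 lay within 2 errors of 0, from a probe on the plus strand of mm9 chromosome 5 from 76052394 to 76052453. Melanocyte markers ran the other way, with 8 of 10 below 0 and a median of -0.31 log2. Their part in the Kit value was not tested.

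Mrgprb1, a Mas-related receptor of mouse mast cells, gave opposite directions with its pair of probes. The brighter probe, at base 896 of the transcript, read 488 in the knockout pool and 322 in the wild-type pool, a difference of 0.69 ± 0.20 log2. The dimmer probe, at base 4125, read 24.5 in the knockout pool and 54.1 in the wild-type pool, a difference of -1.05 ± 0.27 log2. The probes thus lay 1.74 log2 apart, and their mean was -0.18. Of the 5163 genes read by several measured probes, 26.8% showed both signs, and 24 genes had probes at least this far apart. The count of 4 genes past 1.5-fold rests on the brighter Mrgprb1 probe and is 3 with the mean of both.

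**Figure D3:**
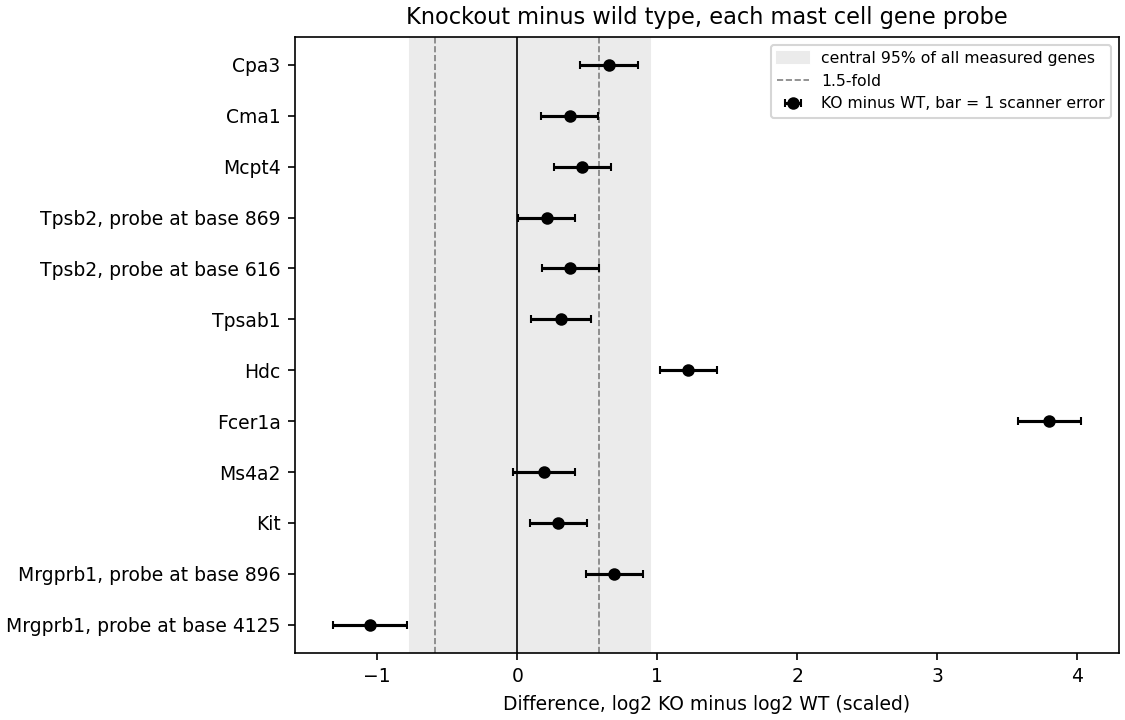
Difference of each probe (log2 knockout minus log2 wild type, after scaling) with a bar of 1 scanner error, over the central 95% of all measured genes (grey, -0.76 to 0.95) and the 1.5-fold lines (dashed). Hdc at 1.22 and Fcer1a at 3.80 lie above the grey band, the Mrgprb1 probe at base 4125 lies below it at -1.05, and the other probes lie inside.

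Other genes of mast cell biology were listed in 8 groups, of which 102 of 118 genes were measured in both pools. Of the 102, 7 were higher and 4 lower by 1.5-fold or more, or 6.86% and 3.92%, near the 6.74% and 4.5% of all measured genes. Their median was 0.10 log2. The 7 higher genes were Mcpt8, Ctsg, Srgn, Il1rl1, Gata1, Ptgdr and Il33, and the 4 lower were Ccl7, Ccl1, Tnf and Ccl11. The same shares of all measured genes, 6.74% higher and 4.5% lower, stand beside the counts of each group in the paragraphs below.

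Genes listed as granule components read higher more often than lower, mostly by less than 1.5-fold. Of 10 measured granule proteases outside the 10 genes, 9 lay above 0, with a median of 0.27 log2, against 0.01 over all measured genes. The 9 include Ctsd (0.17), Ctsl (0.20) and Ctss (0.26), lysosomal proteases that are not limited to mast cells. Mcpt8, a protease of basophils, read 88.1 in the knockout pool and 37.7 in the wild-type pool (1.32 log2). Ctsg, cathepsin G of neutrophils and mast cells, read 596 in the knockout pool and 408 in the wild-type pool (0.64 log2). Cma2, a second chymase gene beside Cma1, stood at 0.35 and Tpsg1, a membrane-anchored tryptase, at 0.28, while Ctsc, the protease that activates many granule proteases, was lowest at -0.16 and Prss34, a basophil protease, stood at 0.17. Mcpt2 read 33.3 in the knockout pool and 27.6 in the wild-type pool. Mcpt1, a chymase of mucosal mast cells, was not well above background in either pool, nor were Mcpt9 and Gzmb.

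In the granule matrix and release group, Srgn, whose proteoglycan core carries the heparin that binds the proteases, was the 1 of 16 genes past 1.5-fold. It read 9412 in the knockout pool and 5579 in the wild-type pool, a difference of 0.85 log2, and blood cells of most kinds also express it. Rab27b, a granule traffic protein, stood at 0.23, Slc18a2, the transporter that loads histamine into granules, at -0.15, and Ndst1, a heparan sulfotransferase, at -0.30. The median was 0.11 log2.

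The list of FcεRI signalling genes, which also holds the receptor's gamma chain Fcer1g, had 0 of 21 past 1.5-fold in either direction. Over all measured genes, 6.74% were higher and 4.5% lower by that size, so a count of 0 in 21 says little. Of the 21, 17 lay above 0, with a median of 0.15 log2 against 0.01 over all measured genes. The list ran from Gab2, an adaptor, at -0.29 to Inpp5d, an inhibitory lipid phosphatase, at 0.52, with Stim1, the calcium sensor of stores, at 0.45. The kinases Lyn and Syk, which act first after the receptor is crosslinked, stood at 0.45 and 0.15.

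Among 18 measured receptors of other kinds, the 1 past 1.5-fold was Il1rl1, the receptor for IL-33. It read 5578 in the knockout pool and 3731 in the wild-type pool, a difference of 0.67 log2, and its 3 probes all lay above 0. Mrgpra2b, with a dim probe, read 62.4 in the knockout pool and 45.2 in the wild-type pool (0.55 ± 0.23 log2). Mrgpra3 was near background, at 14.1 in the knockout pool and 18.5 in the wild-type pool, and its -0.30 ± 0.38 lay within 1 error of 0. C5ar1, the complement receptor, stood at -0.32. Mrgprb2, the mast cell receptor for cationic peptides and drugs, read 751 in the knockout pool and 816 in the wild-type pool, a difference of -0.03 log2. The median of the receptors was 0.10 log2.

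Growth and lineage factors had a median of 0.16 log2 over 13 genes. Gata1, which directs erythroid, megakaryocyte and mast cell fates, was the 1 past 1.5-fold, with 469 in the knockout pool and 275 in the wild-type pool (0.86 log2). Smarca1 followed at 0.54 and Gata2, which mast cells need throughout life, stood at 0.30. Kitl, the ligand of Kit, stood at -0.06, Mitf at -0.12 and Zfpm1, a cofactor of Gata1, was lowest at -0.16. Erythroid markers were higher beside Gata1, 5 of 9 at least 1.5-fold, against 6.74% of all measured genes. The part of these markers in the Gata1 value was not tested.

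The histamine system beyond Hdc had few measured genes, 5 of 8, with 2 above 0 and 3 below. Their median of -0.11 log2 was that of Hrh1, whose dim probe read 85.3 in the knockout pool and 98.2 in the wild-type pool. Past 1.5-fold there were 0 of the 5, which says little where 6.74% of all measured genes were higher and 4.5% lower. Hnmt, which methylates histamine, stood at 0.35 and the receptor Hrh3 at 0.08, while the receptor Hrh4 stood at -0.47 and the transporter Slc29a4 at -0.46. Of the lipid mediator genes, Ptgdr, a prostaglandin D receptor with a dim probe, was the 1 of 9 past 1.5-fold, with 62.4 in the knockout pool and 31.7 in the wild-type pool (1.07 log2). Alox5ap, the partner of 5-lipoxygenase, stood at 0.48, Ltc4s, the leukotriene C4 synthase, at -0.17, Hpgds, the prostaglandin D synthase of mast cells, at 0.07 and Ptgs2 at -0.34, with a median of 0.05.

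The list named type 2 cytokines and chemokines also holds Tnf and Il6, which are not type 2 cytokines. More of its genes read lower than higher in the knockout pool. Il4 stood at -0.33 log2, short of 1.5-fold, and Il5 and Il9 were not measured in both pools. Of 10 measured genes, 4 passed 1.5-fold toward the wild type and 1 toward the knockout, with a median of -0.49 log2. Over all measured genes, 4.5% were lower and 6.74% higher by that size. Ccl7, a chemokine for monocytes and eosinophils, read 1181 in the knockout pool and 2722 in the wild-type pool (-1.11 log2). Ccl1 read 17.9 in the knockout pool and 39.8 in the wild-type pool (-1.06), and Ccl11, eotaxin, stood at -0.71. Tnf, dim like Ccl1, read 48.0 in the knockout pool and 93.4 in the wild-type pool (-0.87). The 4 lower genes are all those of the 8 groups. Over these groups the lower count was 2 with normexp and 1 among genes above the median signal. Il33, an alarmin that acts on mast cells through Il1rl1, was the 1 higher gene, with 381 in the knockout pool and 188 in the wild-type pool (1.11 log2), and Tslp stood at 0.47. Il13 cleared background only in wild-type RNA, at 10.1 in the knockout pool and 41.4 in the wild-type pool, and was at least 3.83-fold lower in knockout RNA when the dim signal is set to the lowest signal well above background or its own, whichever is higher.

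**Figure D4:**
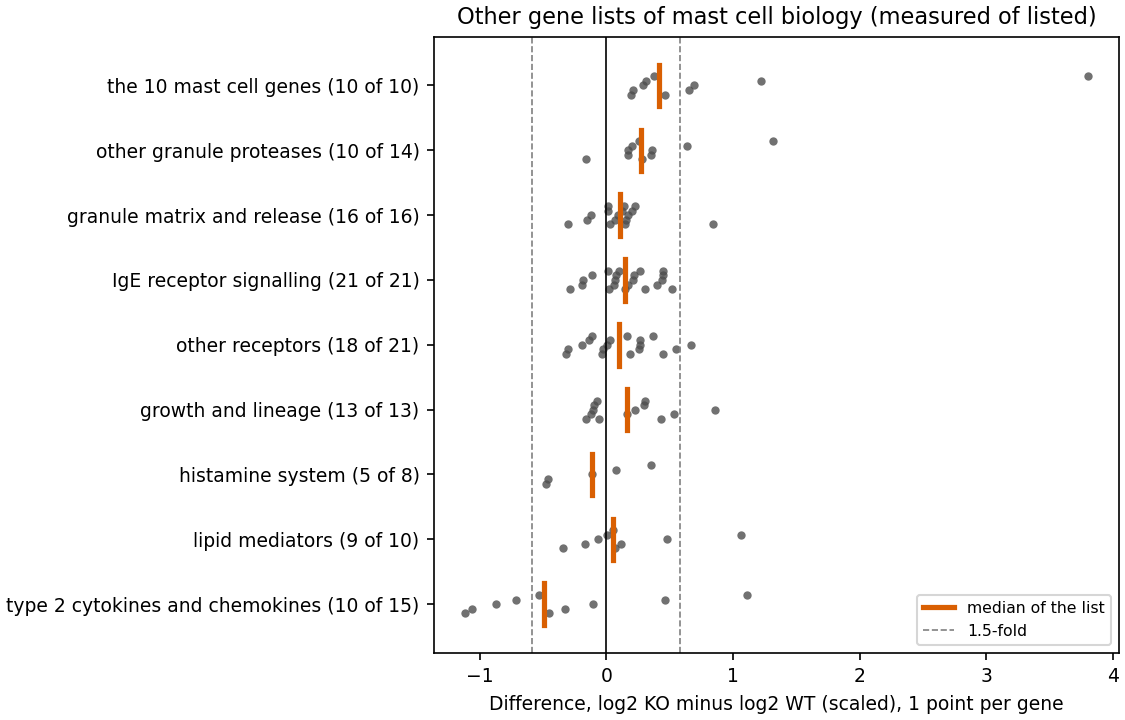
Differences (log2 knockout minus log2 wild type, after scaling) of the 10 mast cell genes and of 8 further lists, 1 point per measured gene, with the median of each list as an orange bar and 1.5-fold as dashed lines; the numbers beside each name are genes measured of genes listed. The median is 0.42 for the 10 genes, between -0.11 and 0.27 for the first 7 of the other lists, and -0.49 for the list named type 2 cytokines and chemokines, which also holds Tnf and Il6.

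Markers of other cells of the skin moved as well, and their part in the values of the 10 genes was not tested. For the counts of markers here and in the next paragraph, the shares of all measured genes past 1.5-fold were 6.74% higher and 4.5% lower. A list's summed level is the sum over its measured genes of the signal relative to the 75th percentile of the array. For the 10 mast cell genes it was 65.8 in the knockout pool and 42.7 in the wild-type pool. Such a sum follows the brightest probes of a list, here those of Cpa3, Mcpt4 and Hdc, and dim genes such as Fcer1a add little to it. Endothelial markers were at least 1.5-fold higher in 6 of 11, all 11 above 0, with a summed level of 24.5 in the knockout pool and 17.9 in the wild-type pool. Skeletal muscle markers were higher by that size in 3 of 10, with 411 in the knockout pool and 322 in the wild-type pool, and erythroid markers in 5 of 9, with 4.79 in the knockout pool and 3.41 in the wild-type pool. General leukocyte markers lay above 0 in 8 of 8, with 0 past 1.5-fold, a median of 0.28 log2 and a summed level of 12.3 in the knockout pool and 10.7 in the wild-type pool.

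Basophil markers, 6 of 6 measured, had 1 past 1.5-fold, Mcpt8, and a median of 0.19 log2; their summed level was 2.0 in the knockout pool and 1.56 in the wild-type pool. Eosinophil markers had 2 of 6 at least 1.5-fold lower, Ear2 (-1.43) and Ear1 (-1.14), and a summed level of 0.26 in the knockout pool and 0.32 in the wild-type pool. The defining eosinophil granule genes were near background, with Prg2 at 8.02 in the knockout pool and 15.6 in the wild-type pool and Epx at 27.0 in the knockout pool and 4.83 in the wild-type pool. Macrophage and dendritic cell markers had 1 of 12 higher, Cd163 (1.02), and 2 lower, H2-Ab1 (-0.95) and Cd74 (-0.62), with a summed level of 26.3 in the knockout pool and 26.2 in the wild-type pool. Melanocyte markers had 2 of 10 lower, Mlana (-0.66) and Oca2 (-0.62), with 31.8 in the knockout pool and 37.3 in the wild-type pool. Fibroblast and keratinocyte markers had 0 of 10 and 0 of 7 past 1.5-fold, with medians of 0.07 and 0.00.

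**Figure D5:**
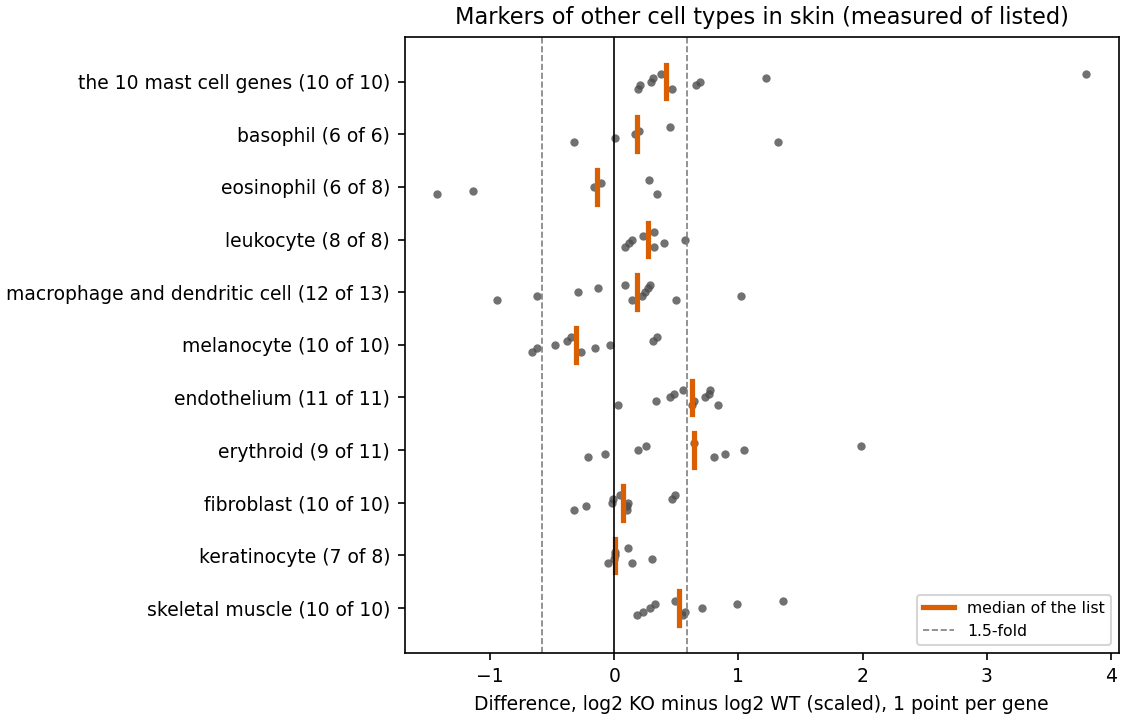
Differences (log2 knockout minus log2 wild type, after scaling) of the 10 mast cell genes and of markers of 10 other cell types, 1 point per measured gene, with the median of each list as an orange bar and 1.5-fold as dashed lines. Endothelial, erythroid and muscle medians lie at 0.63, 0.64 and 0.52, keratinocyte markers at 0.00, and melanocyte markers at -0.31.

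The promoters of the 4 genes past 1.5-fold are shown because GATA factors and basic helix-loop-helix factors such as MITF are known regulators of mast cell genes. RefSeq sequences on GRCm38.p6 were at hand for 8 of the 10 genes; Tpsb2 and Tpsab1 are named only. The 250 bases before the start were searched on both strands for the GATA factor motif GATAA, for the E-box that basic helix-loop-helix factors bind, spelled CANNTG, and for a TATA box, spelled TATAAA. The E-box can share an end base with the GATA motif, and the TATA box overlaps neither. Capitals mark GATAA or, where it lies on the other strand, its reverse complement.
Cpa3, minus strand, chr3:20242182-20242431: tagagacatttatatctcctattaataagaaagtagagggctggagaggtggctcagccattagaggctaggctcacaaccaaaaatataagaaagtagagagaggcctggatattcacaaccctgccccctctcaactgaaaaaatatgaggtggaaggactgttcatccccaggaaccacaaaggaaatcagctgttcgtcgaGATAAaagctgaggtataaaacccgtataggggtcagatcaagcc
Fcer1a, minus strand, chr1:173227230-173227479: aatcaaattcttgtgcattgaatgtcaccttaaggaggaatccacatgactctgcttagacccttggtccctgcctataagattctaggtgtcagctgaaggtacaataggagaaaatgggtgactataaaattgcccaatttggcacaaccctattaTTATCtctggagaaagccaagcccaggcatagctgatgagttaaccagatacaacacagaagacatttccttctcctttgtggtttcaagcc
Hdc, minus strand, chr2:126618679-126618928: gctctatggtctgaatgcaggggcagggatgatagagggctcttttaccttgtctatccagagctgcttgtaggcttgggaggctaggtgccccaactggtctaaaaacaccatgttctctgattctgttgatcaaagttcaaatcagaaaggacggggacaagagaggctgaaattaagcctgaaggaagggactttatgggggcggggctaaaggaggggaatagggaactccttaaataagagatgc
Mrgprb1, minus strand, chr7:48456343-48456592: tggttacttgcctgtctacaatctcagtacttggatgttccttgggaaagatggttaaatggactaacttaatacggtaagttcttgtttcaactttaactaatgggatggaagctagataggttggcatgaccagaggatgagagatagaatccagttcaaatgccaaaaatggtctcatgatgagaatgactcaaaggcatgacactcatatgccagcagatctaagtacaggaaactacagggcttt
GATAA was found in 5 of the 8 genes (Cpa3, Cma1, Mcpt4, Fcer1a and Ms4a2) and in 22.6% of all 32851 promoter windows. CANNTG was found in 5 of 8, against 66.2% of windows, and TATAAA in 3 of 8, against 12.4%. Ms4a2, whose difference was 0.19 log2, held 3 GATAA matches, Cpa3, Cma1, Mcpt4 and Fcer1a held 1 each, and Hdc, Kit and Mrgprb1 held 0. A match in this window is a description of the letters alone.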

How the data were processed

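Skin RNA of 2 pools, 1 per genotype, was measured on 1-colour Agilent arrays. From 200 ng of total RNA, Cy3-labelled RNA was made, per the labels' protocols, and the scans were processed in Agilent Feature Extraction 11.5.1.1, per the submitters' processing notes. The deposited files give a background-subtracted, detrended intensity per spot on a linear scale, per the file headers. The deposited value table holds a ratio that equals this intensity over 1 constant per array, 2273 (knockout) and 2406 (wild type), with medians of 0.0969 and 0.0946 and no gene centring. Its direction follows the scanner files, and 0 columns of unknown origin were met.

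Control spots and 234 outlier spots were left out. Spots of 1 probe were averaged, and each array's 75th percentile was subtracted from its log2 intensity, and a difference is knockout minus wild type. A gene was measured if a probe was well above background in both pools, and its brightest such probe stood for it. Probes were named through RefSeq accession (28330), symbol (2204) or synonym (174) from a GRCm38.p6 table used for names only, and 1767 kept the file's name. Probe positions are on mm9 per the file headers. Numbering of bases within a transcript is the file's own. Genes were counted at 1.5-fold, and no p-value exists with 1 array per group. All 10 genes are named with every probe. Of each other list, the 2 highest and 2 lowest were named, with members that spell out a small count and a few picked for their role after values were seen. A gene that this rule would name is not reported here. The members, the lists and the rules were chosen with earlier results of these data known. Likeness of pattern to other genes is not given, since 2 arrays yield 1 difference. Functions were tested on simulated data. Alternatives covered scaling, background correction (limma 3.58.1), probe choice, the filter on dim probes and the fold. Python 3.11.15, numpy 2.4.6 and pandas 2.3.3 were used.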

Additional observations from a re-analysis of the deposited data

How the results depend on the processing

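Under 7 alternatives to the scaling, background correction, value table, probe rule and signal filter, 64 of 66 values of single members moved by less than 1 scanner error. The exceptions were Fcer1a with normexp, at 2.68 against 3.80 log2, and Mrgprb1 with the mean of its probes, which turned to -0.18 because the dimmer probe has the other sign. Many of the 66 values could hardly move, so their number says little about robustness. The array median, the other 75th percentile and the value table shift all genes alike, by no more than 0.05 log2. The signal filter leaves a difference unchanged, and the mean of probes alters only the 2 genes with a pair of probes. The count of members at least 1.5-fold higher stayed at 4 under the alternatives of scaling, with normexp, with the value table and with no filter on dim probes. It was 3 with the mean of probes, 2 among the 6 members above the median signal, where Fcer1a and Mrgprb1 are not counted, and 2 at 2-fold. Left out after seeing the data, Fcer1a took the count to 3 and the median from 0.42 to 0.38 log2. Of the other mast cell genes, 5 were higher and 2 lower with normexp, and 2 and 1 of 49 among genes above the median signal. Over all genes normexp gave 855 higher and 422 lower, against 1308 and 872. No scaling moved the median of all genes by more than 0.05 log2. No paired analysis was possible because each group has 1 array. Leaving out a replicate was likewise impossible. Signals near background, as for Ms4a2, Tpsab1, the wild-type Fcer1a spot and the second Mrgprb1 probe, limit the precision of their differences.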

Other observations

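The chymase genes of the locus on chromosome 14 were listed with their neighbours, and 7 of 16 genes were measured in both pools. Mcpt8 (1.32 log2) and Ctsg (0.64) were the 2 past 1.5-fold toward the knockout, with 0 the other way, while Gzmc, a granzyme, was the 1 below 0 at -0.20. By that size, 6.74% of all measured genes were higher and 4.5% lower. The granzymes Gzmb, Gzmd, Gzme, Gzmf and Gzmn were not well above background in either pool, and Gzmg was so in the knockout pool alone, at 17.9 in the knockout pool and 3.71 in the wild-type pool. The median of the measured genes was 0.38 log2.

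At the tryptase locus on chromosome 17, 11 of 12 genes were measured and 0 passed 1.5-fold in either direction. Tpsab1 was highest at 0.31 log2, followed by Prss29 at 0.29, and Prss22, an epithelial serine protease, was lowest at -0.50, followed by Prss28 at -0.12. The median was 0.02 log2.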
